A study of Homo sapiens with 12 samples.

Results

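The deubiquitinating enzymes examined were the genes whose symbol is USP followed by a number, with an X after it in some, together with named members of the OTU, UCH, Josephin and JAMM families. A gene counted as a member where at least 1 probe set named that gene and no other. By this rule there were 65 genes of the 19775 measured, read by 188 of 54613 probe sets: 45 of the USP family, 10 of the OTU family, 3 of the UCH family, 3 of the Josephin family and 4 of the JAMM family. Of 21 names listed beside the USP pattern, 20 had such a probe set, and 5 USP genes of the RefSeq annotation had none, among them USP15, whose probe sets also name a microRNA gene, and were not analysed here. No filter on low values was applied, so all 65 genes entered every comparison.

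Cells of KMS-11/Cfz, of its parent KMS-11, of KMS-34/Cfz and of its parent KMS-34 were profiled, human multiple myeloma lines that carry the t(4;14) translocation, with 3 arrays of each and 12 Affymetrix U133 Plus 2.0 arrays in all. KMS-11/Cfz and KMS-34/Cfz were selected from KMS-11 and KMS-34 for growth in 12 nM carfilzomib, an irreversible inhibitor of the proteasome, and their RNA was taken after 1 week without the drug, while the parental cells had never been selected in it. All cultures received 4% fetal bovine serum by the sample labels, whereas the methods of the study name 10%, and each resistant line is a single selected derivative, so the comparisons describe these derivatives and not carfilzomib resistance at large. Nothing states that the 3 arrays of a group came from separate cultures, so the p-values reflect the spread between these arrays and no more. The values are log2 intensities set relative to a centre near 0 for every probe set, which leaves differences between groups intact but removes levels, so no gene's abundance could be set against another's and the plasma cell identity could not be read from marker levels. As differences, 0 of 6 T and NK cell markers and 0 of 4 stromal markers passed the test in either resistant line. In KMS-34/Cfz cells 1 of 3 monocyte and 1 of 2 erythroid markers fell. Of 8 plasma cell and myeloma markers, 3 fell in KMS-34/Cfz cells and 2 in KMS-11/Cfz cells, and 0 rose in either. Of all genes 5.4% rose and 4.69% fell in KMS-34/Cfz cells, and 1.63% and 1.94% in KMS-11/Cfz cells. Fitted values were above 0 for 3 of the 8 in KMS-34/Cfz cells and for 2 in KMS-11/Cfz cells. CD38 was higher on every resistant array than on every parental array of its line. The arrays were unevenly spread: replicate 1 of KMS-34/Cfz had an interquartile range of 0.34 over all probe sets, against 0.207 on replicate 3 of KMS-11/Cfz. That range also takes in differences between the groups. About the mean of their own group, the gene values of these arrays had an SD of 0.163 and 0.067.

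Ubiquitin is joined to proteins by the successive action of E1, E2 and E3 enzymes, and deubiquitinating enzymes cut it off again or trim its chains. The USP, OTU, UCH and Josephin enzymes are cysteine proteases, and the JAMM enzymes are zinc metalloproteases. Some of them sit on the proteasome itself, where ubiquitin is removed from a substrate before or during its degradation, and others work with the p97 ATPase at the endoplasmic reticulum, at endosomes, on histones or in DNA repair.

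The 250 bases upstream of the first start site in the RefSeq promoter table are shown for the 4 genes with the smallest limma adjusted p in a resistant line. These are YOD1 and UCHL5, which fell in KMS-34/Cfz cells, and UCHL1 and JOSD2, which rose in KMS-11/Cfz cells. The calls of UCHL5 and JOSD2 were lost under some of the alternatives given below. They come from build GRCh38.p14 and read 5′ to 3′ on the strand of the gene. The capitals mark matches on either strand to TGANNNNGC, a loose form of the core of the antioxidant response element that leaves the base after TGA free.
YOD1, chr1:207051209-207051458, minus strand: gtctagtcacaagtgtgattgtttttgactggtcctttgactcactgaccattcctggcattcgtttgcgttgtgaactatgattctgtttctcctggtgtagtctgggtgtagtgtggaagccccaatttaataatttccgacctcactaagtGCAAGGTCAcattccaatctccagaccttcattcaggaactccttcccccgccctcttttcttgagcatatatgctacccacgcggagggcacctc
UCHL5, chr1:193059361-193059610, minus strand: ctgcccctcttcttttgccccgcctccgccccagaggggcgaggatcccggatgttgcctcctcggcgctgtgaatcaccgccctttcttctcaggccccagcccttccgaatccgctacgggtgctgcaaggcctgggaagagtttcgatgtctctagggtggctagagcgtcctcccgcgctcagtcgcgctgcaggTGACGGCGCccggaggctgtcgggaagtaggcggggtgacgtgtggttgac
UCHL1, chr4:41256678-41256927, plus strand: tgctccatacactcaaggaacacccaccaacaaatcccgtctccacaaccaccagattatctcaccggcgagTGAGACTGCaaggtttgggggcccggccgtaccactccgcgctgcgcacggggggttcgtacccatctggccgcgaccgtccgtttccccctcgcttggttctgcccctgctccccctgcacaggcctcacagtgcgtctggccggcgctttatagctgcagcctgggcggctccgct
JOSD2, chr19:50511192-50511441, minus strand: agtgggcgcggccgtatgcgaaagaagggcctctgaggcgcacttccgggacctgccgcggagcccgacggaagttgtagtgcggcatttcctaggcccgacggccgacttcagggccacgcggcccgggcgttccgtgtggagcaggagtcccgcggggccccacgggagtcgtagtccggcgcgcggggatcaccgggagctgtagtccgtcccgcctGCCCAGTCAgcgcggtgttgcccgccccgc
For UCHL1 and JOSD2 that start is the outer end of the annotated gene, whereas for YOD1 and UCHL5 it lies 1908 and 716 bases inside the annotated span, so other transcripts of these genes begin further upstream. Each of the 4 windows shown holds 1 match, although of the 3 windows listed for UCHL5 only 1 does, and TGANNNNGC occurs in 35.2% of 35116 promoter windows of this length and in the first window of 18 of the 50 members that have one in the table. TGATGNAA, the core of the ATF4 response element, occurs in 3.1% of all windows and in 1 of the 50 members, and CACCC, a core of KLF sites, in 54.7% of all windows and in 32 of the 50. The window at the inner start of YOD1 holds 6 CpG pairs and is 47.6% G and C, and the windows of UCHL1, UCHL5 and JOSD2 hold 20, 22 and 34 CpG pairs, while the median over the 50 members is 25 against 11 over all windows. A match in these letters is a description of the sequence only.

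Resistant cells were compared with the parental cells of the same line to ask which deubiquitinating enzyme genes had changed with selection in carfilzomib. In KMS-34/Cfz cells, YOD1 fell to 0.246 of its level in KMS-34 cells, by far the largest change among the 65 genes, and the proteasome-bound UCHL5 fell to 0.764 of its level. In KMS-11/Cfz cells, UCHL1 and JOSD2 rose 1.31-fold and 1.29-fold over KMS-11 cells. The other changes that passed the test (limma, Benjamini-Hochberg adjusted p under 0.05 over all genes) were of 0.38 or less on the log2 scale. No member passed in both lines, where 219 of all 19775 genes did, so that count alone says nothing particular about the members. As whole cultures were profiled, fewer cells that express a gene and less of its RNA per cell cannot be told apart.

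**Figure D1:**
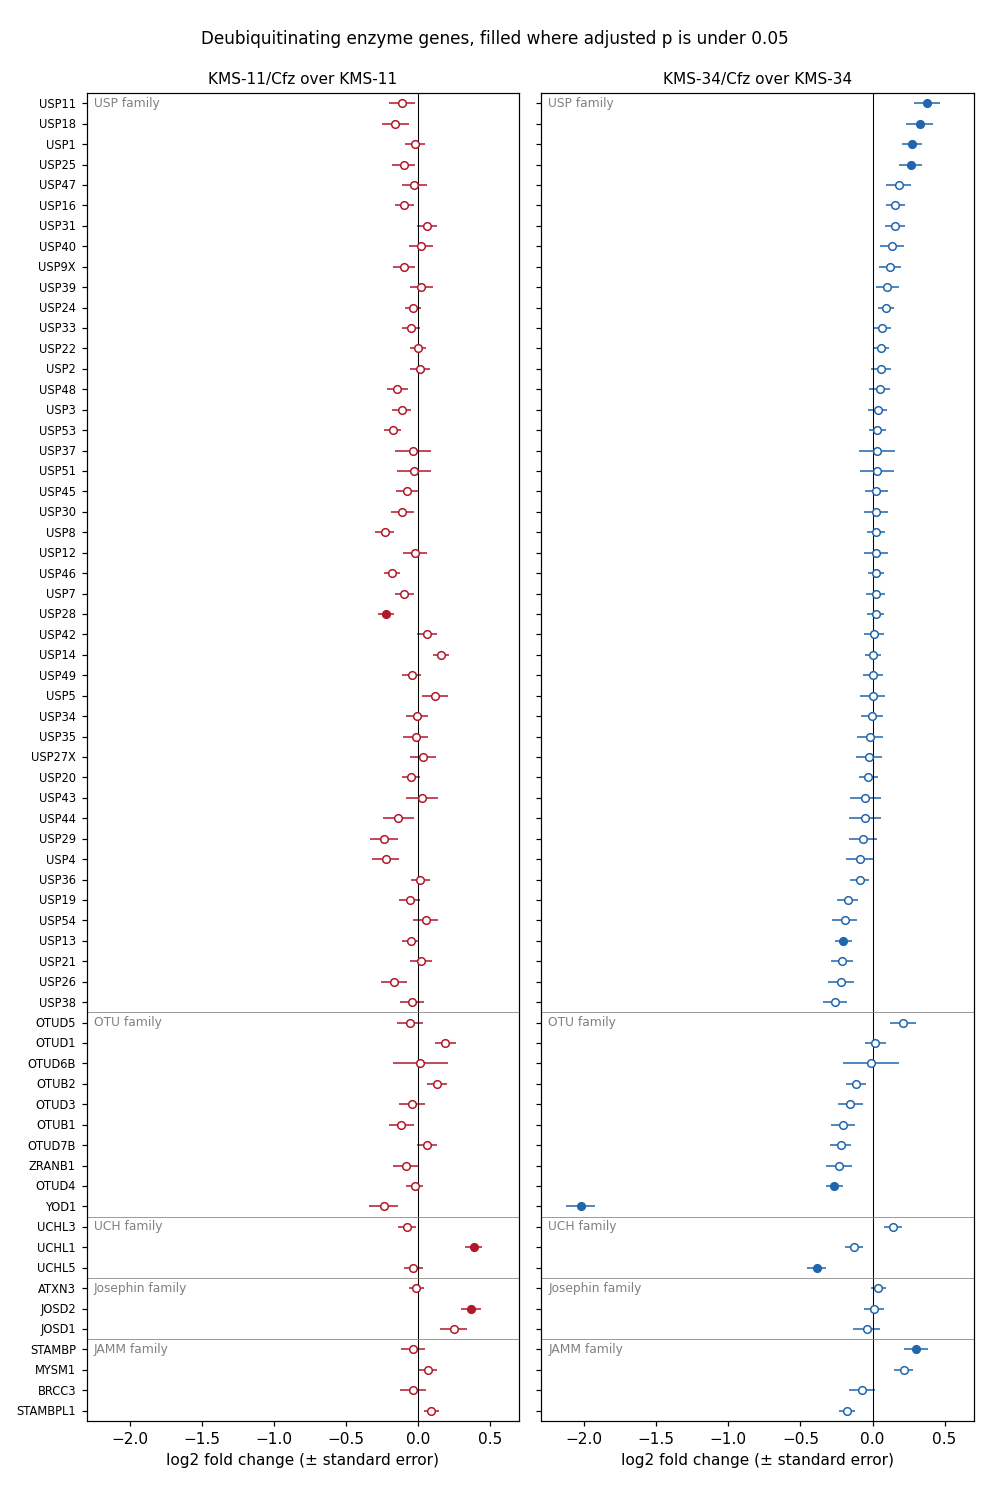
Log2 fold change with its standard error for the 65 deubiquitinating enzyme genes, by family, in KMS-11/Cfz over KMS-11 (left) and KMS-34/Cfz over KMS-34 (right), with filled points where the adjusted p is under 0.05. Most genes lie near 0 in both lines, and YOD1 stands apart at -2.02 in KMS-34/Cfz over KMS-34.

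By count, 5 of the 65 genes rose and 4 fell in KMS-34/Cfz cells, 7.69% and 6.15% of the members, while 5.4% and 4.69% of all 19775 genes rose and fell in that comparison. Of the same genes, 2 rose and 1 fell in KMS-11/Cfz cells, 3.08% and 1.54% of the members, while 1.63% and 1.94% of all genes did. These shares lie near those of all genes, so the counts alone say nothing particular about the members. All 3 KMS-34/Cfz arrays lay above all 3 KMS-34 arrays for 7 members and below them for 9, where 10.2% and 10.5% of all genes did so. For KMS-11/Cfz and KMS-11 the groups did not overlap for 9 members that were higher and 15 that were lower, where 13.1% and 13.7% of all genes did so. The median log2 fold change of the members was 0.01 in KMS-34/Cfz cells and -0.04 in KMS-11/Cfz cells, beside medians of -0.01 and 0.00 over all genes, and 29 of the 65 fitted values were below 0 in KMS-34/Cfz cells and 44 in KMS-11/Cfz cells, where 10604 and 9688 of all 19775 were.

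YOD1, an OTU family enzyme that works with p97 at the endoplasmic reticulum to help extract misfolded proteins, had values of -2.60, -2.85 and -3.09 on the KMS-34/Cfz arrays and -0.88, -0.70 and -0.88 on the KMS-34 arrays. All 3 resistant arrays were lower than all 3 parental arrays, by more than the whole spread within either group. The log2 fold change was -2.02 (SE 0.10, limma adjusted p = 7.68e-08). On the KMS-11/Cfz arrays YOD1 stood at 0.01, -0.08 and -0.13, and on the KMS-11 arrays at 0.12, 0.21 and 0.18, which again do not overlap. That difference of -0.24 (SE 0.10) had a limma adjusted p of 0.31 and was not called. It passed in a fit of these 2 groups alone (adjusted p = 0.0385) and with array weights (adjusted p = 0.0312), whose estimation stopped short of convergence. Under cyclic loess scaling it was 0.76, above 0 and not called (adjusted p = 0.44). The change in KMS-34/Cfz minus that in KMS-11/Cfz was -1.79 on the log2 scale (SE 0.14, limma interaction, adjusted p = 9.57e-06). The 2 probe sets of YOD1 gave different sizes in KMS-34/Cfz cells, -3.12 for 227309_at (limma adjusted p over all probe sets = 1.57e-09) and -0.93 for 215150_at (adjusted p = 3.98e-04), both called, so the gene-level value is an average of a large and a moderate fall. The call in KMS-34/Cfz and the difference between lines held under every alternative tried.

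**Figure D2:**
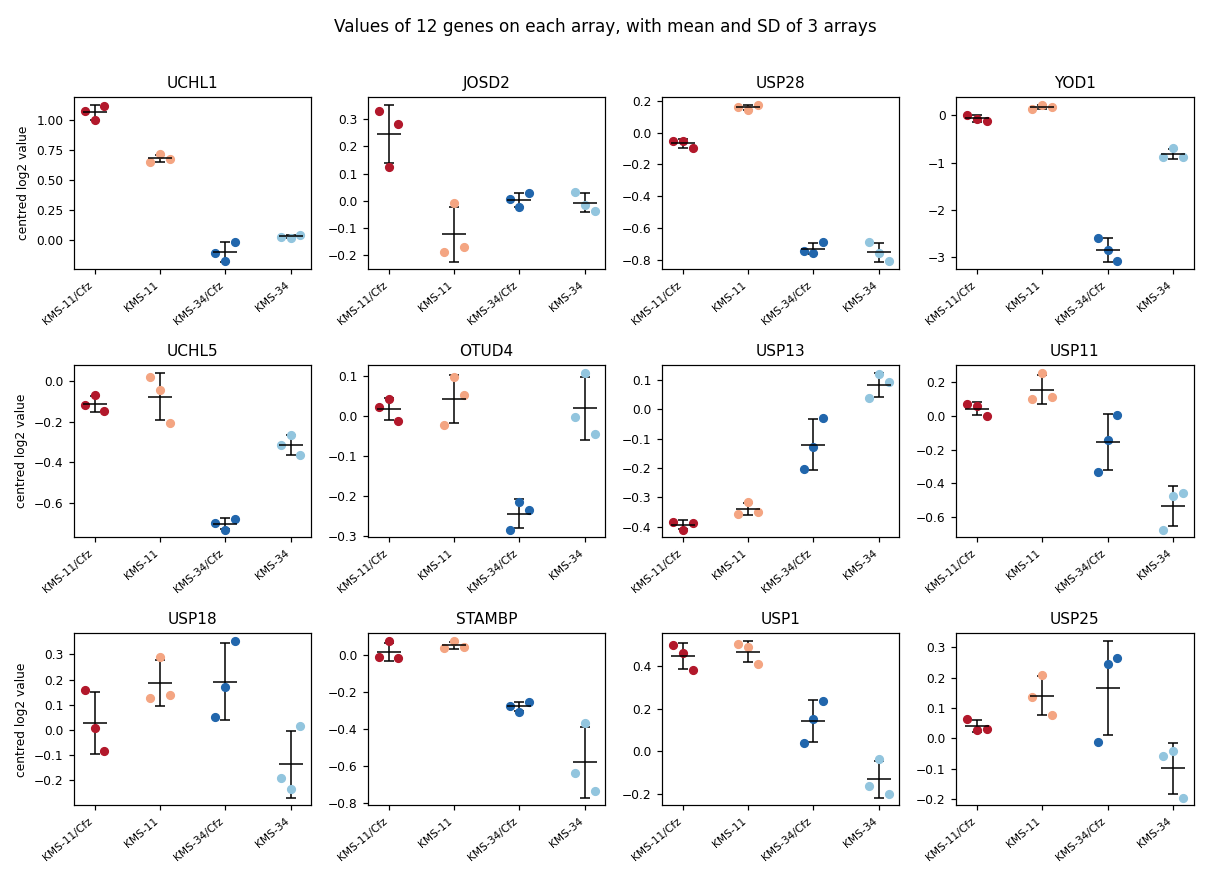
Centred log2 value of the 12 genes that passed the test in either line on each of 12 arrays (points), with the mean and SD of 3 arrays (bar and whiskers), with each resistant line left of its parent; the vertical axes differ between panels and levels cannot be compared between genes. The 3 KMS-34/Cfz points of YOD1 lie between -3.09 and -2.60, below all KMS-34 points, and those of UCHL1 in KMS-11/Cfz lie between 1.00 and 1.12, above all KMS-11 points.

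The other enzymes listed for quality control at the endoplasmic reticulum and for p97 were ATXN3, USP13, USP19 and USP25. USP13, which also acts in autophagy, fell in KMS-34/Cfz cells, with values of -0.20, -0.13 and -0.03 there and 0.04, 0.12 and 0.09 in KMS-34 cells. The groups did not overlap, though 1 KMS-34/Cfz array came close to the KMS-34 range, and the log2 fold change was -0.20 (SE 0.06, limma adjusted p = 0.0445). USP25, which has been linked to the rescue of substrates from endoplasmic reticulum-associated degradation, rose in KMS-34/Cfz cells, with values of -0.01, 0.24 and 0.27 against -0.06, -0.04 and -0.20 in KMS-34 cells. Its log2 fold change was 0.26 (SE 0.08, limma adjusted p = 0.0481), the member nearest to the threshold from inside. The 5 probe sets of USP25 did not move together: 223167_s_at gave 0.64 (limma adjusted p = 0.00103) and the other 4 lay between -0.19 and 0.38 and were not called. Without _x_at and _s_at probe sets the USP25 value was 0.10 (limma adjusted p = 0.714). ATXN3, the Josephin enzyme that binds p97, and USP19 gave 0.04 and -0.17 in KMS-34/Cfz cells and -0.01 and -0.06 in KMS-11/Cfz cells, none of them called. All 5 enzymes of this list had fitted values below 0 in KMS-11/Cfz cells, from -0.24 to -0.01. None was called, where 1.63% and 1.94% of all genes rose and fell. Of all 65 members 44 were below 0 there, and of all 19775 genes 9688.

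Of the enzymes that bind the 19S cap of the proteasome, UCHL5 fell in KMS-34/Cfz cells and USP14 was not called in either line. UCHL5, which docks on ADRM1 and trims ubiquitin chains, had values of -0.70, -0.73 and -0.68 on the KMS-34/Cfz arrays and -0.31, -0.27 and -0.36 on the KMS-34 arrays. The resistant arrays were all lower, and the log2 fold change was -0.39 (SE 0.07, limma adjusted p = 0.002). UCHL5 in KMS-11/Cfz cells had values of -0.12, -0.07 and -0.14, against 0.02, -0.04 and -0.20 in KMS-11 cells. These groups overlapped, with a difference of -0.03 (adjusted p = 0.928). The 4 probe sets of UCHL5 all had negative values in KMS-34/Cfz cells, with 220083_x_at at -0.55 (limma adjusted p = 5.97e-04) and 219960_s_at at -0.42 (adjusted p = 0.00351) called and 1570145_at at -0.34 and 229248_at at -0.24 not called. Probe sets whose names end in _x_at or _s_at may read several transcripts. Without such probe sets the UCHL5 change was -0.29 (limma adjusted p = 0.0671), and with its most variable probe set alone it was -0.24 (adjusted p = 0.327), so the call rests on the probe sets that may be shared. USP14, which removes ubiquitin from substrates at the cap, had 0.16, 0.21 and 0.18 on the KMS-11/Cfz arrays and 0.04, 0.06 and -0.01 on the KMS-11 arrays. The groups did not overlap, and the log2 fold change of 0.16 (SE 0.06) had a limma adjusted p of 0.195. In KMS-34/Cfz cells USP14 gave 0.00 (SE 0.06, adjusted p = 0.986).

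**Figure D3:**
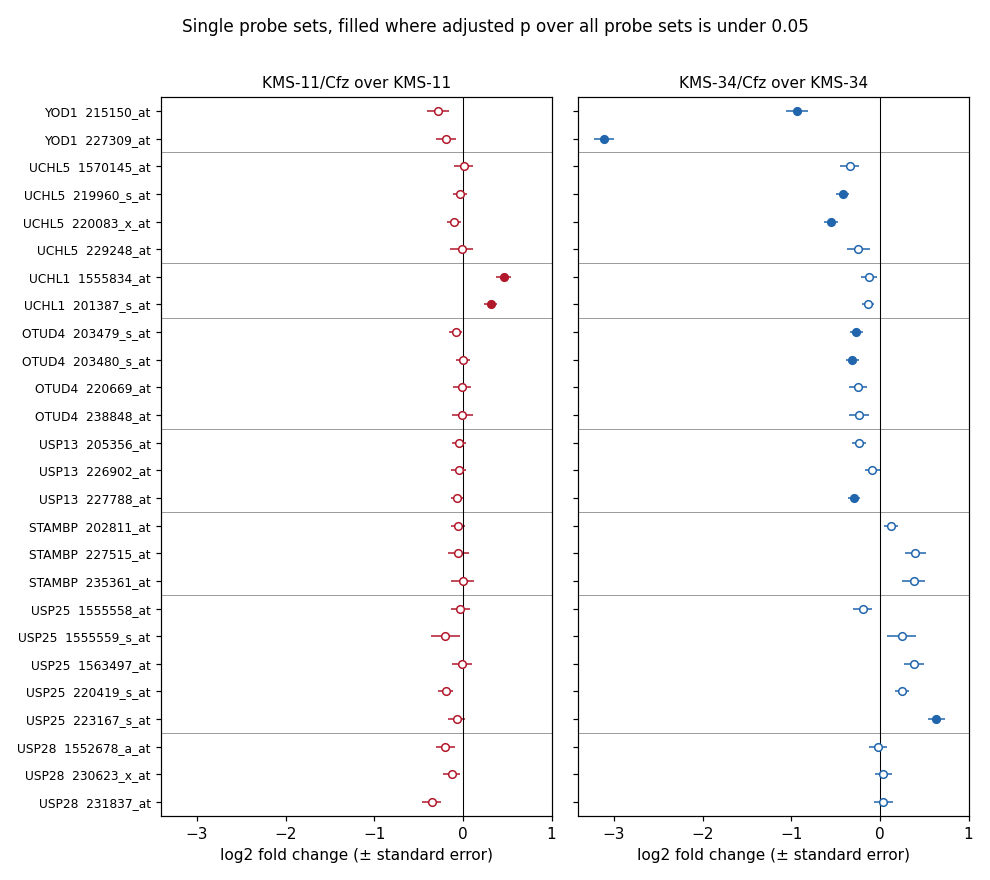
Log2 fold change with its standard error for each probe set of 8 members, in KMS-11/Cfz over KMS-11 (left) and KMS-34/Cfz over KMS-34 (right), filled where the adjusted p over all probe sets is under 0.05. The probe sets of YOD1 gave -3.12 and -0.93 in KMS-34/Cfz over KMS-34, both UCHL1 probe sets were called in KMS-11/Cfz over KMS-11, and 1 of 5 USP25 probe sets was called in KMS-34/Cfz over KMS-34.

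Among the other UCH enzymes, UCHL1, an enzyme best known from neurons that hydrolyses small ubiquitin adducts, rose in KMS-11/Cfz cells. Its values were 1.07, 1.00 and 1.12 on the KMS-11/Cfz arrays and 0.65, 0.71 and 0.67 on the KMS-11 arrays. The groups were well apart, with a log2 fold change of 0.39 (SE 0.06, limma adjusted p = 0.00254), and both probe sets were called, at 0.46 for 1555834_at and 0.31 for 201387_s_at. On the KMS-34/Cfz arrays UCHL1 stood at -0.11, -0.18 and -0.02, and on the KMS-34 arrays at 0.03, 0.02 and 0.04. The resistant arrays were all lower here, and the difference of -0.13 (SE 0.06) was not called (limma adjusted p = 0.231). With array weights, whose estimation stopped short of convergence, it was -0.20 and passed (adjusted p = 0.0127). The change in KMS-34/Cfz minus that in KMS-11/Cfz was -0.52 (SE 0.09, limma interaction, adjusted p = 0.00263), and both the rise and the difference between lines held under every alternative. UCHL3, a close relative that also processes the ubiquitin-like protein NEDD8, gave 0.14 in KMS-34/Cfz (limma adjusted p = 0.218) and -0.08 in KMS-11/Cfz (adjusted p = 0.737).

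JOSD2, a Josephin family enzyme, rose in KMS-11/Cfz cells, with values of 0.33, 0.13 and 0.28, against -0.19, -0.01 and -0.17 in KMS-11 cells. The groups did not overlap, and the log2 fold change was 0.37 (SE 0.07, limma adjusted p = 0.00969). The call was lost without replicate 1 or 3 of KMS-11/Cfz or without replicate 1 or 3 of KMS-11, with limma adjusted p of 0.0521 to 0.0644. In KMS-34/Cfz cells the values of 0.01, -0.02 and 0.03 overlapped those of 0.03, -0.02 and -0.04 in KMS-34 cells, a difference of 0.01 (adjusted p = 0.964). The difference between the lines, KMS-34/Cfz minus KMS-11/Cfz, was -0.36 (limma interaction, adjusted p = 0.0492). The related JOSD1 gave 0.25 in KMS-11/Cfz cells, with all 3 resistant arrays higher, and a limma adjusted p of 0.218.

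Of 11 members listed for DNA damage and the cell cycle, USP1 and USP11 rose and OTUD4 fell in KMS-34/Cfz cells, where 5.4% and 4.69% of all genes rose and fell. In KMS-11/Cfz cells USP28 alone was called, and fell, where 1.63% and 1.94% of all genes rose and fell. USP1, which with WDR48 removes ubiquitin from FANCD2 and PCNA, had 0.04, 0.15 and 0.24 on the KMS-34/Cfz arrays and -0.16, -0.04 and -0.20 on the KMS-34 arrays, with no overlap. The log2 fold change was 0.27 (SE 0.07, limma adjusted p = 0.0225). The call was lost without replicate 2 or 3 of KMS-34/Cfz or replicate 1 or 3 of KMS-34 (adjusted p = 0.0724 to 0.0879). A fit of these 2 groups alone (adjusted p = 0.146) and the most variable probe set of USP1 (adjusted p = 0.0705) also ended it. USP11, which acts in homologous recombination, had -0.33, -0.14 and 0.00 on the KMS-34/Cfz arrays and -0.67, -0.47 and -0.46 on the KMS-34 arrays. The resistant arrays were higher although they spread widely, with a log2 fold change of 0.38 (SE 0.09, limma adjusted p = 0.014). The call was lost without replicate 3 of KMS-34/Cfz (adjusted p = 0.054) or replicate 1 of KMS-34 (adjusted p = 0.0624). A fit of these 2 groups alone also ended it (adjusted p = 0.0886). In KMS-11/Cfz cells USP11 gave -0.11 (limma adjusted p = 0.717), and the difference between lines was 0.49 (limma interaction, adjusted p = 0.033).

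OTUD4, an OTU enzyme that acts with DNA alkylation repair proteins, had -0.29, -0.22 and -0.24 on the KMS-34/Cfz arrays and 0.00, 0.11 and -0.05 on the KMS-34 arrays. All resistant arrays were lower, with a log2 fold change of -0.26 (SE 0.06, limma adjusted p = 0.0135). Its 4 probe sets ran from -0.31 to -0.24, of which 203480_s_at and 203479_s_at were called. The gene's call was lost without _x_at and _s_at probe sets (-0.24, limma adjusted p = 0.147) and with its most variable probe set (adjusted p = 0.28). It was also lost in a fit of these 2 groups alone (adjusted p = 0.126) and without replicate 2 of KMS-34 (adjusted p = 0.0502). USP28, which stabilizes MYC, had -0.05, -0.05 and -0.10 on the KMS-11/Cfz arrays and 0.16, 0.14 and 0.17 on the KMS-11 arrays. The groups were apart, with a log2 fold change of -0.23 (SE 0.06, limma adjusted p = 0.0418), yet no probe set of USP28 was called alone, and leaving out any array of KMS-11/Cfz or KMS-11 ended the call (adjusted p = 0.12 to 0.191), as did leaving out replicate 2 of KMS-34/Cfz (adjusted p = 0.0627). Under cyclic loess scaling the USP28 value was -0.09. All 11 genes of this list had fitted values below 0 in KMS-11/Cfz cells, from -0.24 to -0.02. USP28 was the 1 that passed, and USP1, at -0.02 (SE 0.07), was the nearest to 0. Of all 65 members 44 were below 0 there, and of all 19775 genes 9688. In KMS-34/Cfz cells 7 of the 11 were above 0 and 4 below.

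Among enzymes of endosomes and receptor sorting, STAMBP, a JAMM enzyme that cuts Lys63-linked chains at the endosome, rose in KMS-34/Cfz cells. Its values were -0.27, -0.31 and -0.25 on the KMS-34/Cfz arrays and -0.64, -0.36 and -0.73 on the KMS-34 arrays. The KMS-34 arrays spread more than the KMS-34/Cfz arrays, and the groups did not overlap. The log2 fold change was 0.30 (SE 0.08, limma adjusted p = 0.0303). The call was lost without replicate 2 or 3 of KMS-34/Cfz or replicate 1 or 3 of KMS-34 (adjusted p = 0.0685 to 0.127). A fit of these 2 groups alone (adjusted p = 0.168) and the most variable probe set of STAMBP (adjusted p = 0.0873) also ended it. The 3 probe sets of STAMBP gave 0.12 to 0.40 and none was called alone. USP8, which sorts receptors at the endosome, was the member nearest to the threshold from outside in KMS-11/Cfz cells, where it had -0.05, -0.09 and -0.15, against 0.15, 0.16 and 0.10 in KMS-11 cells. Its log2 fold change was -0.23 (SE 0.06, limma adjusted p = 0.071), the same rounded size as USP28 just inside.

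USP18, the protease that removes the ubiquitin-like ISG15, was 1 of 8 measured genes listed for NF-kB and innate signalling. Of these, USP11, USP18 and USP25 rose in KMS-34/Cfz cells and none fell, where 5.4% and 4.69% of all genes rose and fell. The fitted values of the 8 were above 0 for 4 and below 0 for 4, and USP11 and USP25 also stand in the lists above. USP18 had 0.05, 0.17 and 0.35 on the KMS-34/Cfz arrays and -0.19, -0.23 and 0.01 on the KMS-34 arrays. The lowest resistant array came close to the highest parental array, and the log2 fold change was 0.33 (SE 0.09, limma adjusted p = 0.0439). In KMS-11/Cfz cells USP18 gave -0.16 (SE 0.09, adjusted p = 0.556), and the difference between lines was 0.49 (limma interaction, adjusted p = 0.0484). When single arrays were left out, the KMS-34/Cfz calls of USP13, USP18 and USP25 were lost most often. Leaving out any 1 array ended the USP13 call except for replicate 3 of KMS-34/Cfz (limma adjusted p = 0.0618 to 0.121). The same held for the USP25 call except for replicate 1 of KMS-34/Cfz (0.0591 to 0.173). For the USP18 call the exceptions were replicate 1 of KMS-11/Cfz, replicate 1 of KMS-34/Cfz and replicate 3 of KMS-34 (0.0506 to 0.155). Leaving out an array of KMS-11/Cfz or KMS-11 does not alter these fold changes, only the shared estimate of the spread and the adjustment.

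None of 10 measured chromatin enzymes was called in either line. Of all genes 5.4% rose and 4.69% fell in KMS-34/Cfz cells, and 1.63% and 1.94% in KMS-11/Cfz cells, so this count alone says nothing particular about these enzymes. MYSM1, a JAMM enzyme that removes ubiquitin from histone H2A, came closest, with 0.11, 0.10 and 0.10 on the KMS-34/Cfz arrays and -0.06, -0.02 and -0.26 on the KMS-34 arrays. The groups did not overlap, and its log2 fold change of 0.22 (SE 0.07) had a limma adjusted p of 0.0515. USP30 and USP35, which act on mitochondrial ubiquitin, gave between -0.11 and 0.03 in the resistant lines and were not called. Over the alternatives the USP30 value in KMS-11/Cfz ran from -0.30 to 1.19, and it was not called in any (limma adjusted p of 0.106 or more).

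Averaged over both lines, JOSD2 rose by 0.19 (SE 0.05, limma adjusted p = 0.0318), and YOD1 fell by 1.13 (SE 0.07, adjusted p = 1.18e-06) and UCHL5 by 0.21 (SE 0.05, adjusted p = 0.0133). That is 1 member higher and 2 lower, where 3.99% and 3.86% of all genes were higher and lower. Taken apart, YOD1 and UCHL5 were called in KMS-34/Cfz alone and JOSD2 in KMS-11/Cfz alone, and the average of YOD1 was not called under cyclic loess scaling (-0.69, adjusted p = 0.231). The UCHL5 average was lost with its most variable probe set (-0.13, adjusted p = 0.542), without _x_at and _s_at probe sets (-0.15, adjusted p = 0.248) and under cyclic loess (adjusted p = 0.0656). That of JOSD2 was lost with the most variable probe set per gene (adjusted p = 0.0641), although JOSD2 has 1 probe set and its value stayed at 0.19. Leaving out replicate 1 or 3 of KMS-11/Cfz, replicate 1 or 3 of KMS-11, replicate 2 or 3 of KMS-34/Cfz or replicate 2 or 3 of KMS-34 ended the JOSD2 average (adjusted p = 0.0568 to 0.0964). By limma, 219 of 19775 genes passed in both lines taken apart and 0 of the 65 members did, while at an unadjusted p under 0.05 there were 23 members in KMS-34/Cfz and 12 in KMS-11/Cfz, where 4298 and 2652 of all 19775 genes were.

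The difference between the lines in their change was itself past the threshold for 6 members, with USP11 and USP18 higher in KMS-34/Cfz and YOD1, UCHL1, UCHL5 and JOSD2 lower. These are 2 higher and 4 lower of 65, where 3.7% and 2.74% of all genes were. By probe set, 15 of the 188 member probe sets were called in KMS-34/Cfz cells, 5 higher and 10 lower, where 7.05% of all probe sets were called in either direction, and 3 were called in KMS-11/Cfz cells, all higher, where 1.75% were. The 15 included probe sets of 5 genes that were not called as genes, named after their values were seen: OTUB1 (201245_s_at, -0.34), ZRANB1 (225138_at, -0.38), OTUD7B (238573_at, -0.41), USP9X (229573_at, 0.27) and USP48 (229812_at, 0.38). ZRANB1 and OTUD7B are OTU enzymes of NF-kB and Wnt signalling, and OTUB1 is an OTU enzyme that also restrains E2 enzymes.

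The parental lines differed from each other in far more of these genes than the resistant lines did from their parents. Between KMS-34 and KMS-11 cells, 13 of the 65 genes were higher in KMS-34 and 27 lower, 20% and 41.5% of the members, where 21.6% and 20.5% of all genes were. This comparison shares its parental arrays with the resistance comparisons. USP30, the deubiquitinating enzyme of the outer mitochondrial membrane that opposes parkin, had -0.04, 0.12 and -0.09 on the KMS-34 arrays and -2.12, -2.05 and -2.13 on the KMS-11 arrays. The lines were far apart, with a log2 fold change of 2.10 (SE 0.08, limma adjusted p = 8.51e-11). In the main fit KMS-34/Cfz at -0.12, 0.06 and 0.14 and KMS-11/Cfz at -2.10, -2.32 and -2.20 stayed close to their own parents. BRCC3, the Lys63-specific JAMM enzyme of the BRISC and BRCA1-A complexes, was lower in KMS-34, at a log2 fold change of -1.18 (limma adjusted p = 7.37e-08), as was USP46, which works with WDR48 and WDR20, at -0.98 (adjusted p = 5.55e-09). USP54 was higher in KMS-34 by 0.89 (limma adjusted p = 1.21e-06). These 4 genes were named after their values were seen. Among members that changed with selection, YOD1 was also lower in KMS-34 than in KMS-11, at a log2 fold change of -0.99 (limma adjusted p = 1.86e-06), but under cyclic loess scaling the value was -0.18 and not called (adjusted p = 0.798). USP28 (-0.91), USP11 (-0.69), UCHL1 (-0.65), STAMBP (-0.63), USP1 (-0.60), USP18 (-0.32), UCHL5 (-0.24) and USP25 (-0.24) were likewise lower in KMS-34. USP13 was higher (0.42), and OTUD4 (-0.02) and JOSD2 (0.12) were not called. Without _x_at and _s_at probe sets UCHL5 and USP25 were not called (limma adjusted p = 0.731 and 0.678). The USP18 call was lost under some alternatives (limma adjusted p up to 0.0641).

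The place of the changed genes in the genome was read from their order in the RefSeq annotation (GRCh38.p14), since the arrays' own build is not given in the sources used here. YOD1 lay among 20 measured genes, 10 on each side, whose median log2 fold change in KMS-34/Cfz was -0.00, and PFKFB2, the next gene on 1 side, gave 0.03. Of the 20, CD55 (-0.66), CD46 (-0.26) and MAPKAPK2 (-0.20) fell, so none came near the -2.02 of YOD1. Around UCHL5 the median of 20 genes was -0.08, and both next genes fell, RGS2 by 0.47 (limma adjusted p = 0.00121) and RO60 by 0.28 (adjusted p = 0.0223), as did PLA2G4A. UCHL5, OTUD7B, USP21 and YOD1 lie on chromosome 1, and from OTUD7B to YOD1, a stretch picked after these values were seen, there were 581 measured genes with a median of -0.10 in KMS-34/Cfz, of which 9 rose and 142 fell. The 1088 measured genes of chromosome 1 before OTUD7B had a median of -0.01, with 67 that rose and 43 that fell. In KMS-11/Cfz the same 581 genes had a median of 0.01, with 13 that rose and 14 that fell. OTUD7B and USP21 gave -0.22 and -0.21 in KMS-34/Cfz and were not called. The part of this wider shift in the values of the 4 members was not tested. UCHL1, on chromosome 4, had 20 neighbours with a median of -0.07 in KMS-11/Cfz, of which none was called.

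**Figure D4:**
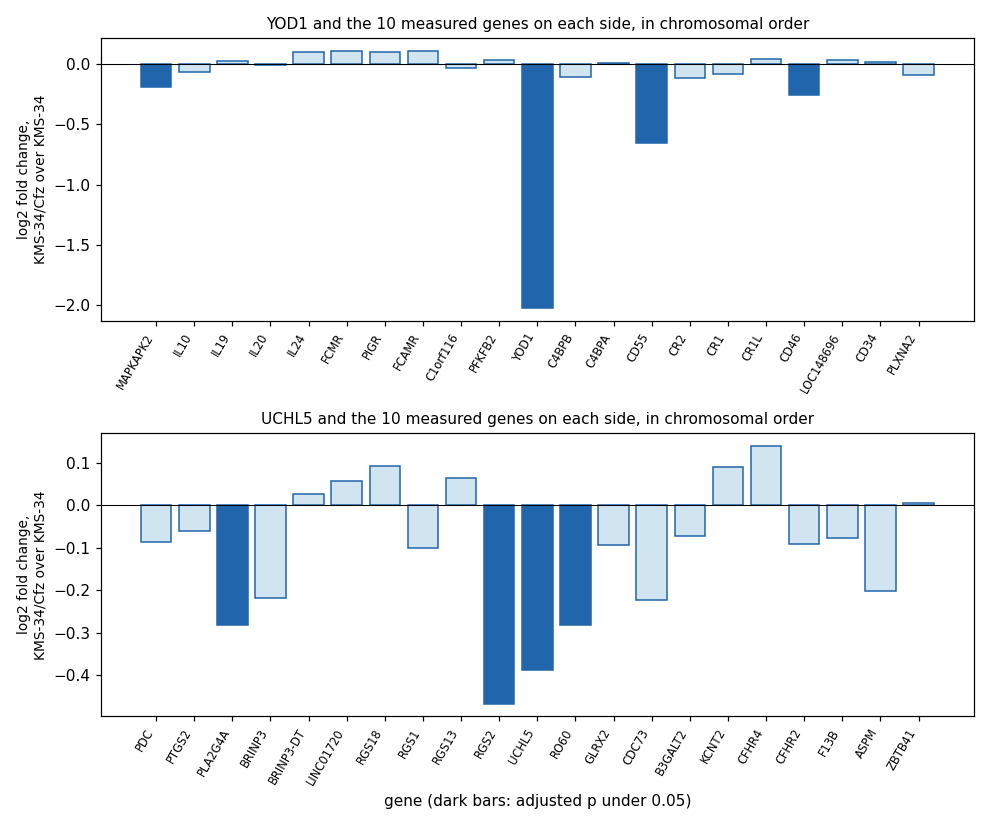
Log2 fold change in KMS-34/Cfz over KMS-34 (vertical axis, with a different scale in each panel) of YOD1 (top) and UCHL5 (bottom) and of the 10 measured genes on each side in chromosomal order (horizontal axis), dark where the adjusted p is under 0.05. YOD1 at -2.02 stands far below its neighbours, of which CD55 is lowest at -0.66, whereas RGS2 at -0.47 lies below UCHL5 at -0.39.

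The partners of these enzymes were followed in a list of 21 genes, of which 20 were measured. In KMS-34/Cfz cells 2 of the 20 rose and 1 fell, where 5.4% and 4.69% of all genes did, and in KMS-11/Cfz cells 4 rose and none fell, where 1.63% and 1.94% of all genes did. The 3 subunits of the p97 machine with which YOD1 and ATXN3 work rose together in KMS-11/Cfz cells. VCP, the p97 ATPase itself, had 0.44, 0.41 and 0.41 on the KMS-11/Cfz arrays and 0.03, 0.12 and 0.09 on the KMS-11 arrays, with a log2 fold change of 0.34 (SE 0.06, limma adjusted p = 0.0049). Its ubiquitin-binding cofactors gave 0.36 for UFD1 (SE 0.06, limma adjusted p = 0.00555) and 0.38 for NPLOC4 (SE 0.07, adjusted p = 0.0108). In KMS-34/Cfz cells, where YOD1 fell, the same genes gave -0.05 for VCP, 0.01 for UFD1 and -0.20 for NPLOC4, none called. The change differed between the lines for each, by -0.39 for VCP (limma interaction, adjusted p = 0.0128), -0.35 for UFD1 (adjusted p = 0.0315) and -0.58 for NPLOC4 (adjusted p = 0.00445). In KMS-11/Cfz the rises of VCP and UFD1 held under every alternative, and that of NPLOC4 was lost without replicate 1 or 3 of KMS-11/Cfz or replicate 3 of KMS-11 (adjusted p = 0.0569 to 0.0577). The UFD1 difference between lines was not called with the most variable probe set per gene (adjusted p = 0.0713), although its value stayed at -0.35. Nor was it called without any 1 array except replicate 1 or 3 of KMS-34/Cfz or replicate 2 of KMS-34 (0.0563 to 0.0901).

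The partners of BRCC3 went separate ways: BABAM1, the shared scaffold of its complexes, rose by 0.31 in KMS-11/Cfz cells (limma adjusted p = 0.0185), a call that any omitted KMS-11/Cfz or KMS-11 array ended (adjusted p = 0.0584 to 0.0868), and ABRAXAS2, the scaffold of BRISC, fell by 0.39 in KMS-34/Cfz cells (adjusted p = 0.00168). BRCC3 itself gave -0.07 in KMS-34/Cfz and -0.04 in KMS-11/Cfz, not called in either. ENY2, of the module that activates USP22, and PARN, whose partnership with a member was not established here, each rose by 0.23 in KMS-34/Cfz cells (limma adjusted p = 0.0197 and 0.0448). Leaving out replicate 2 or 3 of KMS-34/Cfz or replicate 1 of KMS-34 ended the ENY2 call (adjusted p = 0.0502 to 0.0759). PARN was lost without any 1 array except replicate 1 of KMS-34/Cfz or replicate 2 of KMS-34 (0.0622 to 0.162) and with aligned array medians (0.052). With the most variable probe set per gene (0.0873) and without _x_at and _s_at probe sets (0.0642) PARN was also not called, although its value stayed at 0.23.

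**Figure D5:**
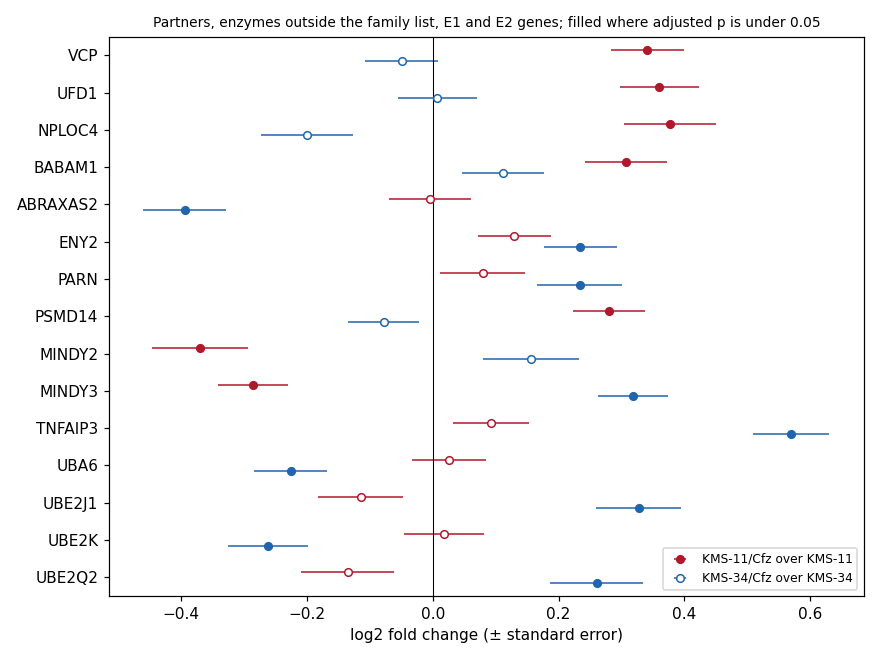
Log2 fold change (horizontal axis, with standard error) in KMS-11/Cfz over KMS-11 and KMS-34/Cfz over KMS-34 of 15 genes of the ubiquitin pathway that passed the test in at least 1 line, filled where the adjusted p is under 0.05. VCP, UFD1 and NPLOC4 lie between 0.34 and 0.38 in KMS-11/Cfz over KMS-11 and between -0.20 and 0.01 in KMS-34/Cfz over KMS-34.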

How the data were processed

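Total RNA of 12 samples was labelled and hybridised to Affymetrix U133 Plus 2.0 arrays. The values used are log2 intensities that the authors made by RMA, per the labels, and deposited as 1 table with each probe set centred near 0; where the centre lies is not stated, and the median of the 12 values is 0 for 6.43% of probe sets. The values run from -7.75 to 8.64 and the array medians from -0.02 to 0.01. The table gives no depth, background or detection call, and the number of arrays limits the precision. Arrays of a group correlated with r between 0.759 and 0.949 over probe sets.

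Groups came from the sample labels. Of 54613 probe sets, 41091 named 1 gene, 1801 several and 11721 none in the platform annotation, and 41037 of the first were matched to current symbols in RefSeq. Probe sets of 1 gene were averaged, giving 19775 genes. Limma 3.58.1 (R 4.3.3) was fitted to 4 group means over all 12 arrays, with moderated two-sided tests and Benjamini-Hochberg adjustment over all genes at 0.05; a second fit covered all probe sets. No filter, pseudocount or block entered. The code was tested on simulated data. Alternatives were a fit on the 2 groups compared alone, a replicate block, aligned array medians, cyclic loess, a variance trend, array weights (whose estimation stopped short of convergence), the most variable probe set per gene, no _x_at or _s_at probe sets, a threshold of 0.01, each array left out and 3 arrays left out jointly.

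Named were all members past the threshold in a line or in the difference between lines, the members nearest to it, USP14 and the UCH family, and up to 4 other pathway genes per list and line. The members and lists were chosen with earlier results of these data known. Neighbouring genes and promoter sequences came from RefSeq tables (GRCh38.p14), read with Python 3.11.15 and pandas 2.3.3.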

Additional observations from a re-analysis of the deposited data

Results flagged for a closer look

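For 6 members the change in KMS-34/Cfz over KMS-34 differed from the change in KMS-11/Cfz over KMS-11 by limma's interaction test, and these differences, KMS-34 minus KMS-11, are on the log2 scale. YOD1 differed by -1.79 (adjusted p = 9.57e-06), with the 3 KMS-34/Cfz arrays all below KMS-34 and the 3 KMS-11/Cfz arrays all below KMS-11. UCHL1 differed by -0.52 (adjusted p = 0.00263), with KMS-34/Cfz below KMS-34 and KMS-11/Cfz above KMS-11 on every array. Leaving out any 1 array left both of these differences past the threshold.

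UCHL5 differed by -0.35 (adjusted p = 0.0391), a call lost without any 1 array except replicate 1 of KMS-34/Cfz or replicate 1 of KMS-11 (adjusted p = 0.052 to 0.107). JOSD2 differed by -0.36 (adjusted p = 0.0492), a call lost without any 1 array except replicate 2 of KMS-11/Cfz, replicate 1 of KMS-34/Cfz or replicate 2 of KMS-11 (0.0659 to 0.139). USP11 differed by 0.49 (adjusted p = 0.033), lost without any 1 array except replicate 1 of KMS-34/Cfz or replicate 2 or 3 of KMS-34 (0.0529 to 0.0905). USP18 differed by 0.49 (adjusted p = 0.0484), lost without any 1 array except replicate 1 of KMS-11/Cfz, replicate 1 of KMS-34/Cfz or replicate 3 of KMS-34 (0.0726 to 0.131). The replicate block also ended the differences of JOSD2 (0.0708) and USP18 (0.0651), as did cyclic loess (0.061 and 0.0657). With the most variable probe set per gene none of UCHL5 (-0.23, adjusted p = 0.606), JOSD2 (0.0931) and USP18 (0.0686) was called. The same held without _x_at and _s_at probe sets (0.265, 0.0697 and 0.0601). JOSD2 and USP18 have 1 probe set each, so their values stayed the same in both alternatives. For them only the shared estimate of the spread and the adjustment moved. Aligned array medians ended UCHL5 (0.0587) and JOSD2 (0.0645).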

How the results depend on the processing

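The calls of YOD1 in KMS-34/Cfz and UCHL1 in KMS-11/Cfz, and their differences between lines, held under every alternative. Fitting only the 2 groups compared gave 2 called members in KMS-34/Cfz and 6 in KMS-11/Cfz, against 9 and 3. It ended the KMS-34/Cfz calls of OTUD4, STAMBP, USP1, USP11, USP13, USP18 and USP25. Array weights gave 11 in KMS-11/Cfz, 23 in KMS-34/Cfz, 17 in the mean of both and 24 in their difference, against 3, 9, 3 and 6. A threshold of 0.01 left 2 in KMS-34/Cfz, 1 in the mean and 2 in the difference, and 3 of 55 members were called in KMS-34/Cfz without _x_at and _s_at probe sets. With the most variable probe set the median of KMS-34 over KMS-11 was -0.26, against -0.08. Leaving out 1 array at a time gave 4 to 12 members in KMS-34/Cfz (4 without replicate 2 of KMS-34/Cfz or replicate 1 of KMS-34, 5 without replicate 3 of KMS-34), 1 to 4 in KMS-11/Cfz (1 without replicate 1 or 3 of KMS-11/Cfz or replicate 1 or 3 of KMS-11), 2 to 5 in the mean (5 without replicate 1 of KMS-34/Cfz), 2 to 11 in the difference (11 without replicate 1 of KMS-34/Cfz, and 2 or 3 without any other array except replicate 2 or 3 of KMS-34) and 34 to 43 between the parental lines. Cyclic loess turned the difference between lines of TNFAIP3 to -0.68 (adjusted p = 0.575), against 0.48. The cause was not tested for any of these.

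Same-numbered arrays were not taken as pairs in the main fit, since only the replicate number in the labels links them. Their deviations correlated at -0.009, 0.129 and 0.039 in the KMS-11 lines and 0.561, 0.374 and 0.046 in the KMS-34 lines. Of 12 arrays, 7 correlated best with their own number. As these values differ between pairs and 2 pairs of the KMS-34 lines are well above 0, the fit with a block is given beside the main fit. A replicate block gave 2 members in KMS-11/Cfz, 6 in KMS-34/Cfz, 4 in the mean, 4 in the difference and 41 between the parental lines, and it ended the calls of USP28 in KMS-11/Cfz (0.0603), of USP13, USP18 and USP25 in KMS-34/Cfz (0.0504 to 0.0581) and of the JOSD2 and USP18 differences. With no signal over background in the table, dim probe sets could not be told from bright ones.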

Other observations

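Among 14 measured deubiquitinating enzymes outside the family list, MINDY3, which trims Lys48-linked chains, moved in opposite directions in the lines. It had -0.05, -0.03 and -0.04 on the KMS-34/Cfz arrays and -0.33, -0.31 and -0.42 on the KMS-34 arrays, a rise of 0.32 (limma adjusted p = 0.00244). On the KMS-11/Cfz arrays it had 0.26, 0.32 and 0.33 and on the KMS-11 arrays 0.56, 0.60 and 0.61, a log2 fold change of -0.29 (adjusted p = 0.0114), and the lines differed by 0.60 (limma interaction, adjusted p = 0.000522). With its most variable probe set neither line was called (adjusted p = 0.088 in KMS-34/Cfz and 0.177 in KMS-11/Cfz), and leaving out replicate 1 of KMS-11/Cfz or replicate 2 or 3 of KMS-11 ended the KMS-11/Cfz call (0.0532 to 0.0735). The related MINDY2 fell in KMS-11/Cfz, with a log2 fold change of -0.37 (adjusted p = 0.0155), a call that leaving out any KMS-11/Cfz array or replicate 1 of KMS-11 ended (0.0542 to 0.0841).

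PSMD14, the JAMM enzyme of the proteasome cap, rose by 0.28 in KMS-11/Cfz (limma adjusted p = 0.0147), with 0.74, 0.71 and 0.69 on the KMS-11/Cfz arrays and 0.40, 0.48 and 0.43 on the KMS-11 arrays. Leaving out any KMS-11/Cfz array or replicate 1 or 3 of KMS-11 ended that call (0.0507 to 0.0833), and in KMS-34/Cfz PSMD14 gave -0.08. TNFAIP3, the NF-kB inhibitor A20, rose by 0.57 in KMS-34/Cfz (adjusted p = 5.92e-05), with -2.31, -2.16 and -2.15 on the KMS-34/Cfz arrays and -2.81, -2.72 and -2.80 on the KMS-34 arrays. Under cyclic loess it was not called (0.45, adjusted p = 0.606). Of 23 measured E2 enzymes none was called in KMS-11/Cfz by limma (1 at an unadjusted p under 0.05), where 1.63% and 1.94% of all genes rose and fell. In KMS-34/Cfz 2 rose and 1 fell, where 5.4% and 4.69% of all genes did. There UBE2J1, the E2 of the endoplasmic reticulum membrane, rose by 0.33 (adjusted p = 0.00698). UBE2Q2 rose by 0.26 (adjusted p = 0.0395) and UBE2K fell by 0.26 (adjusted p = 0.018). With the most variable probe set per gene neither UBE2J1 (adjusted p = 0.465) nor UBE2Q2 (0.0726) was called. UBE2Q2 was also lost without any 1 array except replicate 1 of KMS-34/Cfz or replicate 2 of KMS-34 (0.0507 to 0.143). UBE2Q2 and UBE2K were lost without _x_at and _s_at probe sets (0.0548 and 0.0606). In both probe set alternatives the UBE2Q2 value stayed at 0.26. Of the 2 E1 enzymes, UBA6 fell by 0.23 in KMS-34/Cfz (adjusted p = 0.0247). Leaving out replicate 2 of KMS-34 ended the calls of UBE2K (0.066) and UBA6 (0.0782), and UBA6 was also lost without replicate 2 or 3 of KMS-34/Cfz or replicate 1 of KMS-34 (0.0513 to 0.0821) and without _x_at and _s_at probe sets (0.228).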
